A study of Mus musculus with 3 samples.

Results

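The cells described here are the group 2 innate lymphoid cells (ILC2) among the immune cells of the mouse aorta. A cell barcode was taken as a member when it held at least 1 unique molecular identifier (UMI, a tag that marks 1 captured transcript) of Gata3 and at least 1 UMI of Il1rl1, Areg, Il5, Il13 or Rxrg, and none of Cd3e, Cd3d, Cd79a, Csf1r, Csf3r, Cpa3 or Col1a1. In all, 68 of the 20903 barcodes that passed the limits on detected genes and mitochondrial UMIs met this rule: 13 of 6038 in the control library, 26 of 8155 in the library labelled HHcy and 29 of 6710 in the library labelled WD. The rule chose the members by measured values, so the genes of the rule are described below and support nothing. Genes that are made together with them are bound up with the same choice.

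The mice of all 3 groups were ApoE-/- on the C57BL/6J background, so the controls lacked Apoe by label as well. One group was labelled as control, the HHcy group drank homocysteine at 1.8 g/L for 4 weeks, and the WD group ate a western diet for 4 weeks. Aortas with their adventitia were digested with enzymes, red cells were lysed, and live CD45+ nucleated cells were sorted and sequenced with droplet 3′ chemistry. Each group was 1 library. The labels give neither the number of mice behind a library nor their age, so no test between groups was possible, and all intervals below are 95% intervals of counting error alone.

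Group 2 innate lymphoid cells are lymphocytes that live in tissues and carry no rearranged antigen receptor. They are driven by the transcription factors GATA3 and RORA and respond to alarm cytokines such as IL-33, whose receptor is encoded by Il1rl1, and to IL-7 and IL-2. Once triggered they release IL-5, IL-13, GM-CSF (Csf2) and amphiregulin (Areg), and in the artery wall they are known mostly from the adventitia and the fat around it.

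The libraries held 7512, 9753 and 8557 called barcodes (control, HHcy, WD) and 66789257, 105180370 and 93164076 UMIs. Between 20 and 24 barcode sequences were shared by each pair of libraries, and 0 of them was a member. Apoe was at 15.8, 368 and 19.1 CPM (UMIs of a gene per 1000000 UMIs) over all kept barcodes of the 3 libraries, so the library labelled HHcy goes against its genotype label. Members held 1, 4 and 1 Apoe UMIs. Members had 2375 to 15596 UMIs each, with a median of 5654.5 over all and of 4696, 6747.5 and 5796 by library. They were set beside 380 T barcodes (at least 2 UMIs of Cd3d, Cd3e and Cd3g, none of Cd79a or Csf1r) with medians of 4686, 6120 and 5149.5 UMIs. They were also set beside 46 NK barcodes with medians of 6838, 6038 and 7460.5 UMIs. NK barcodes held at least 2 UMIs of Ncr1, Klrb1c and Eomes and none of Cd3d, Cd3e, Cd79a or Csf1r. Of the members, 5 also met the T rule through Cd3g and were counted as members.

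Promoters of 3 genes of the rule are shown because Gata3, a GATA-binding factor, defines these cells. All 3 hold a match, which not every gene of the rule does. The sequences are RefSeq windows of 300 bases (GRCm38.p6, 250 before to 50 after the gene's start), written 5′ to 3′ on the gene's strand, with capitals on each match to a GATA motif on either strand. The motif is GATA with an A or T before it and an A or G after it. Il5 and Il13 encode the cytokines that name the type 2 response, and Il1rl1 encodes the IL-33 receptor.
Il5, chr11:53720544-53720843, plus strand: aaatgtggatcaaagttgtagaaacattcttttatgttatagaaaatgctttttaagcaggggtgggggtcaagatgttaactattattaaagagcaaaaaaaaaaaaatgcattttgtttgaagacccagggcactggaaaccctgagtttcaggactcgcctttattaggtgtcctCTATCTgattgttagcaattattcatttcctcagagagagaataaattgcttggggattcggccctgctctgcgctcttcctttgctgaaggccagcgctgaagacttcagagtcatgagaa
Il13, chr11:53634653-53634952, minus strand: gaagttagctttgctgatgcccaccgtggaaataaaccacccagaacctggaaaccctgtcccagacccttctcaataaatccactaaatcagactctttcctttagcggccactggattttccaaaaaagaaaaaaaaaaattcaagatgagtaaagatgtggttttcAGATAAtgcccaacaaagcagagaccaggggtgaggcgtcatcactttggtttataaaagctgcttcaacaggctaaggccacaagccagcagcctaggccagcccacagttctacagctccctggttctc
Il1rl1, chr1:40429320-40429619, plus strand: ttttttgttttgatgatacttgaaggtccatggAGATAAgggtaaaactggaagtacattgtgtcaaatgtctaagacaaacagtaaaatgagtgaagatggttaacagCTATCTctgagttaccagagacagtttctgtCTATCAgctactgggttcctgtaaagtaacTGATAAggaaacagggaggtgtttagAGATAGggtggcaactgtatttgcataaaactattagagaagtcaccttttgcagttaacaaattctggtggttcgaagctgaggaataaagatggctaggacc

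The Il5 window held 1 match, 72 bases before the start, and the Il13 window held 1, 81 bases before it. The Il1rl1 window shown held 5 matches, and a second Il1rl1 window, at chr1:40439379-40439678, held 1. Of other genes of the rule, Areg held 0 matches, and Gata3 held 1, which lies 36 bases after the start. Across all 32851 windows, 29.8% held at least 1 match. Among the genes tested against T barcodes and matched to a window, the share was 21.6% (521 of 2416), and among those higher in members it was 21.7% (60 of 276), so the motif was no more frequent there than in the background. Of the 15 leading genes named below, 10 had a window and 5 of those held a match. A match describes letters in a window and does not show binding.

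Among the genes of the rule, Gata3 (ENSMUSG00000015619) was at 771, 804 and 992 CPM, here over the summed UMIs of the members of a library, in the control, HHcy and WD libraries. Il1rl1 (ENSMUSG00000026069) was at 1510, 629 and 950 CPM and was detected in 67 of 68 members. The 1 member without it came from the HHcy library and had 18 UMIs of Il5. Areg, an epidermal growth factor receptor ligand that promotes tissue repair, was detected in 42 members, at 849, 980 and 475 CPM. Il5, the eosinophil and B-1 cell cytokine, was detected in 21 members, at 110, 312 and 204 CPM from 7, 55 and 34 UMIs. Il13, which acts on epithelium and macrophages, was detected in 9 members, at 692, 34.0 and 325 CPM, and 43 of the 44 UMIs of the control library came from 1 member. Rxrg, a nuclear receptor, was detected in 4 members with 1 UMI each, so it marked few of these cells.

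Most members met the rule with room to spare. Of the 5 genes of which 1 was required, 19 members held 1, 31 held 2, 11 held 3, 6 held 4 and 1 held all 5. Il1rl1 alone admitted 18 members, Il5 alone admitted 1, and Areg alone admitted 0. Just inside the rule, 2 members held a single Gata3 UMI and 1 held a single UMI of the 5 genes. Just outside it, 84 barcodes failed on Gata3 alone (10 of them with a Rora UMI, 6 with Hs3st1), and 35 failed on the 5 genes alone (8 with Rora, 9 with Hs3st1). A further 29 barcodes failed by a single UMI of 1 excluded gene, and 25 of these held Rora, 26 Il7r and 11 Hs3st1.

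Markers of group 2 innate lymphoid cells that the rule did not use were present in the members. Of a list of 24 such genes, the median member held 9, with a range of 4 to 15, and 65 of 68 held at least 5. The median T barcode held 2 or 3, depending on the library. The list made up 0.969%, 0.781% and 0.941% of the members' UMIs against 0.186%, 0.138% and 0.188% of those of T barcodes. Rora was detected in 65 members, Id2 in 65, Il7r in 64, Il2ra in 60, Klrg1 in 45, Arg1 in 39, Hs3st1 in 38, Csf2 in 33, Icos in 30 and Kit in 28. Ptgdr2 (the prostaglandin D2 receptor CRTH2) and Il9 were detected in 0 of 68 members, Nmur1 (the neuromedin U receptor) in 3 and Tph1 in 2. A count of 0 is limited by depth, since 3 UMIs over all members would be 7.38 CPM.

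**Figure D1:**
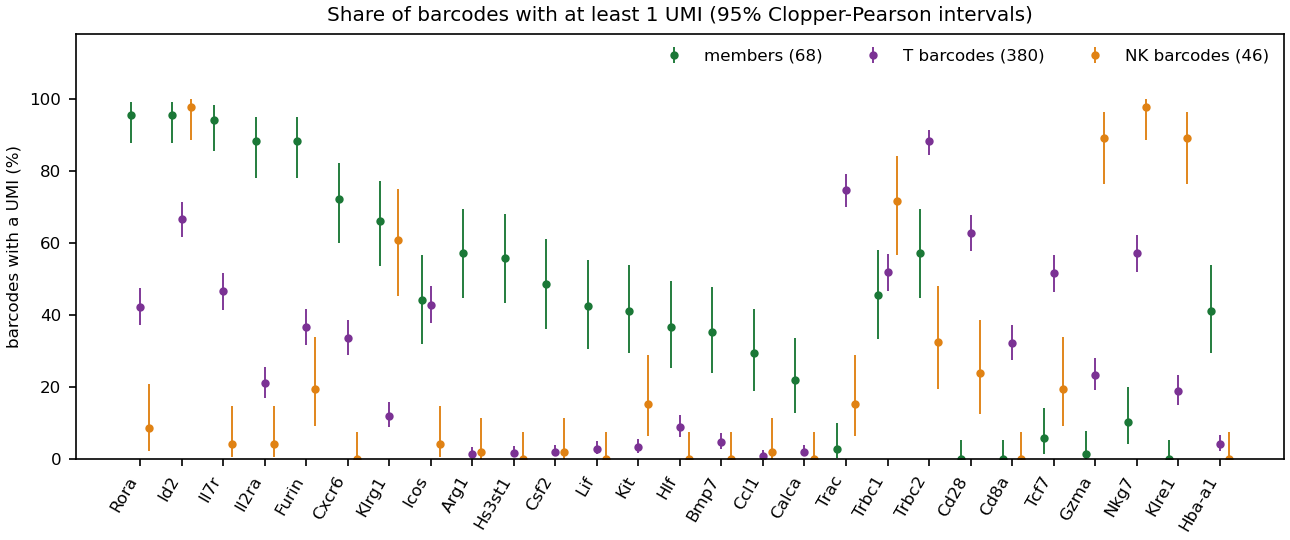
Share of ILC2-like members (68), T barcodes (380) and NK barcodes (46) with at least 1 UMI of each gene, in percent, with 95% Clopper-Pearson intervals. Rora, Id2, Il7r, Il2ra and Furin were found in 60 or more members, Cd28, Cd8a and Klre1 in 0, and Trbc1 and Trbc2 in 31 and 39.

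Members were then compared with T barcodes over the 3 libraries, with UMIs summed per library and class and the library as a block in edgeR's quasi-likelihood test. Each library comes from another group, so the spread is that of the contrast across the 3 groups. Outside the genes of the barcode rules, 355 of 3020 genes (11.8%) were higher in members at an adjusted p under 0.05, and 207 (6.85%) were lower. Without the WD library these counts were 233 and 109, and without the HHcy library 122 genes were lower. The T barcodes were chosen on Cd3 genes and the members on their near absence, so differences in T cell genes follow in part from that choice. Genes that passed the filter on low counts through one class alone had to differ, and counts within a list are therefore given as a description beside these percentages.

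The genes with the largest differences were Runx1t1, Ccdc184, Klf5, Hs3st1, Dach2, Arg1, Rab27b, Ccl1, Lpcat2, Hes1, Rnf128, Csf2, Lif, Calca and Alox5, which were 4.53 to 6.75 log2 units higher in members. Each was at 40.3 CPM or less over all T barcodes, under the filter on low counts, so these differences are a description. Hs3st1 (ENSMUSG00000051022), a heparan sulfate sulfotransferase, was at 377, 238 and 343 CPM in members of the 3 libraries and at 2.95, 2.45 and 4.97 CPM in T barcodes. Its log2 fold change was 6.53 (SE 0.34). With 9 UMIs in all T barcodes it passed the filter through the members alone, so this is a description. Hes1, a target of Notch signalling, was at 283, 521 and 1064 CPM in members against 20.7, 7.36 and 28.6 in T barcodes. Klf5 is a zinc finger factor, Alox5 makes leukotrienes, and Rab27b serves granule release. These 3 genes had log2 fold changes of 6.57, 4.53 and 5.96. In the other direction the largest differences were in Cma1, Cd28, Cd8b1, Cd8a, Il17a, Ctsw, Sh2d1a, Klrk1, Themis, Klre1, Gzma, Plcxd2, Klrc1, Gm2682 and Ms4a4b, most of them genes of T and NK cells. Members were at 2.46 CPM or less for each of them, so these differences are a description too. Cma1, a mast cell protease, had 0 UMIs in members and 1390 in T barcodes, and its call was lost without the WD library. The rule of the members excluded Cpa3 and the T rule did not, so the Cma1 difference is bound up with the rules. The calls for Cd8a, Cd8b1 and Il17a were lost in DESeq2.

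Of 14 transcription factors of this lineage, 9 could be tested and 3 were higher and 1 lower, with a median log2 fold change of -0.40 beside -0.03 over all genes. Rora, the nuclear receptor needed for ILC2 development, was at 2642, 2203 and 2676 CPM in members and at 320, 247 and 388 CPM in T barcodes. For Rora the log2 fold change was 3.14 (SE 0.35, adjusted p = 1.5e-05 by edgeR). Id2, which blocks B and T cell programs, had a log2 fold change of 2.23 and Hlf one of 2.85. Over all T barcodes Hlf lay under the filter on low counts, so its value is a description. Tcf7, an early factor of T cells and innate lymphoid precursors, had 0, 5 and 1 UMIs in members and was lower by edgeR (log2 fold change -4.11). With so few UMIs Tcf7 passed the filter on low counts through the other classes, so this is a description. Bcl11b, which T cells and ILC2 are both known to use, was at 283, 164 and 204 CPM in members and did not pass (log2 fold change -0.53, adjusted p = 0.20). Pparg, a lipid-sensing receptor, was too sparse to test and was detected in 15 members.

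Receptors followed, with 17 of 30 tested, 9 higher and 3 lower and a median log2 fold change of 1.18. Il2ra, the high-affinity chain of the IL-2 receptor, was at 881, 714 and 668 CPM in members against 88.5, 59.7 and 84.6 in T barcodes (log2 fold change 3.44). Il7r, the IL-7 receptor, was at 1022, 969 and 872 CPM against 375, 316 and 343 (1.63). Kit, the stem cell factor receptor, and Klrg1, an inhibitory lectin of mature ILC2, had log2 fold changes of 3.84 and 2.85. Over all T barcodes both lay under the filter on low counts, so these values are a description. Ramp1 and Ramp3, which shape receptors for the peptides CGRP and adrenomedullin, were higher by 1.19 and 2.29, and Ltb4r1, a leukotriene B4 receptor, by 2.58. The value of Ltb4r1 is a description for the same reason as those of Kit and Klrg1. Icos, a costimulatory receptor that ILC2 and T cells share, was at 236, 187 and 241 CPM against 227, 219 and 288 (log2 fold change -0.01, SE 0.25). Il18r1, Ctla4 and Tnfrsf4 were lower. Over all members these genes lay under the filter on low counts, so this is a description. The calls for Ctla4 and Tnfrsf4 were lost in DESeq2 and without the WD library, that for Ctla4 also without the HHcy library, as was that for Ramp1. Receptors for IL-25 (Il17rb) and IL-9 (Il9r) were too sparse to test, at 10 and 16 members.

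Secreted products and the enzymes near them showed 9 of 14 tested genes higher and 2 lower, with a median log2 fold change of 2.57. Csf2, which encodes GM-CSF, was at 1180, 413 and 1095 CPM in members and at 5.90, 56.4 and 44.8 CPM in T barcodes (log2 fold change 4.66). Arg1, the arginase that ILC2 carry without stimulation, was at 330, 340 and 553 CPM against 2.95, 2.45 and 16.2. For Csf2, Arg1 and the other leading genes named above, T barcodes lay under the filter on low counts, so their values are a description. Ccl1, a ligand of the chemokine receptor CCR8, was at 834, 159 and 481 CPM and Calca, which encodes CGRP, at 110, 170 and 331 CPM in members. Lif, an IL-6 family cytokine, and Furin, a protease that cuts proproteins, had log2 fold changes of 4.61 and 3.39. The 2 genes that were lower, Ccl5 and Xcl1, are chemokines of cytotoxic lymphocytes. Over all members both lay under the filter on low counts, so this is a description. The call for Xcl1 was lost without the HHcy or the WD library. Il4, Il6, Il2 and Bmp7 were too sparse to test and were detected in 4, 6, 11 and 24 members.

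Of 10 residence genes tested, 4 were higher and 0 lower (median log2 fold change 0.60). These were Rgs2 (2.83), Cxcr6 (1.77), Cd69 (1.46) and Gpr183 (1.06), of which Cxcr6 is a chemokine receptor and Cd69 blocks exit from tissue. With no filter on low counts, 4 of 12 were higher and 2 lower. The residence integrin genes Itga1 and Itgae, too sparse for the filter, had 0 and 1 UMIs in members against 90 and 75 in T barcodes. Of 8 circulation genes tested, 0 were higher and 4 lower (median -1.59). S1pr1, the exit receptor, had 1, 0 and 1 UMIs in members and a log2 fold change of -4.85. Those of Lef1 and Itga4 were -4.05 and -1.64. S1pr1 and Lef1 were nearly absent from members and passed the filter on low counts through the other classes, so their values are a description. Without the HHcy library the calls for Cd69 and Gpr183 were lost.

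**Figure D2:**
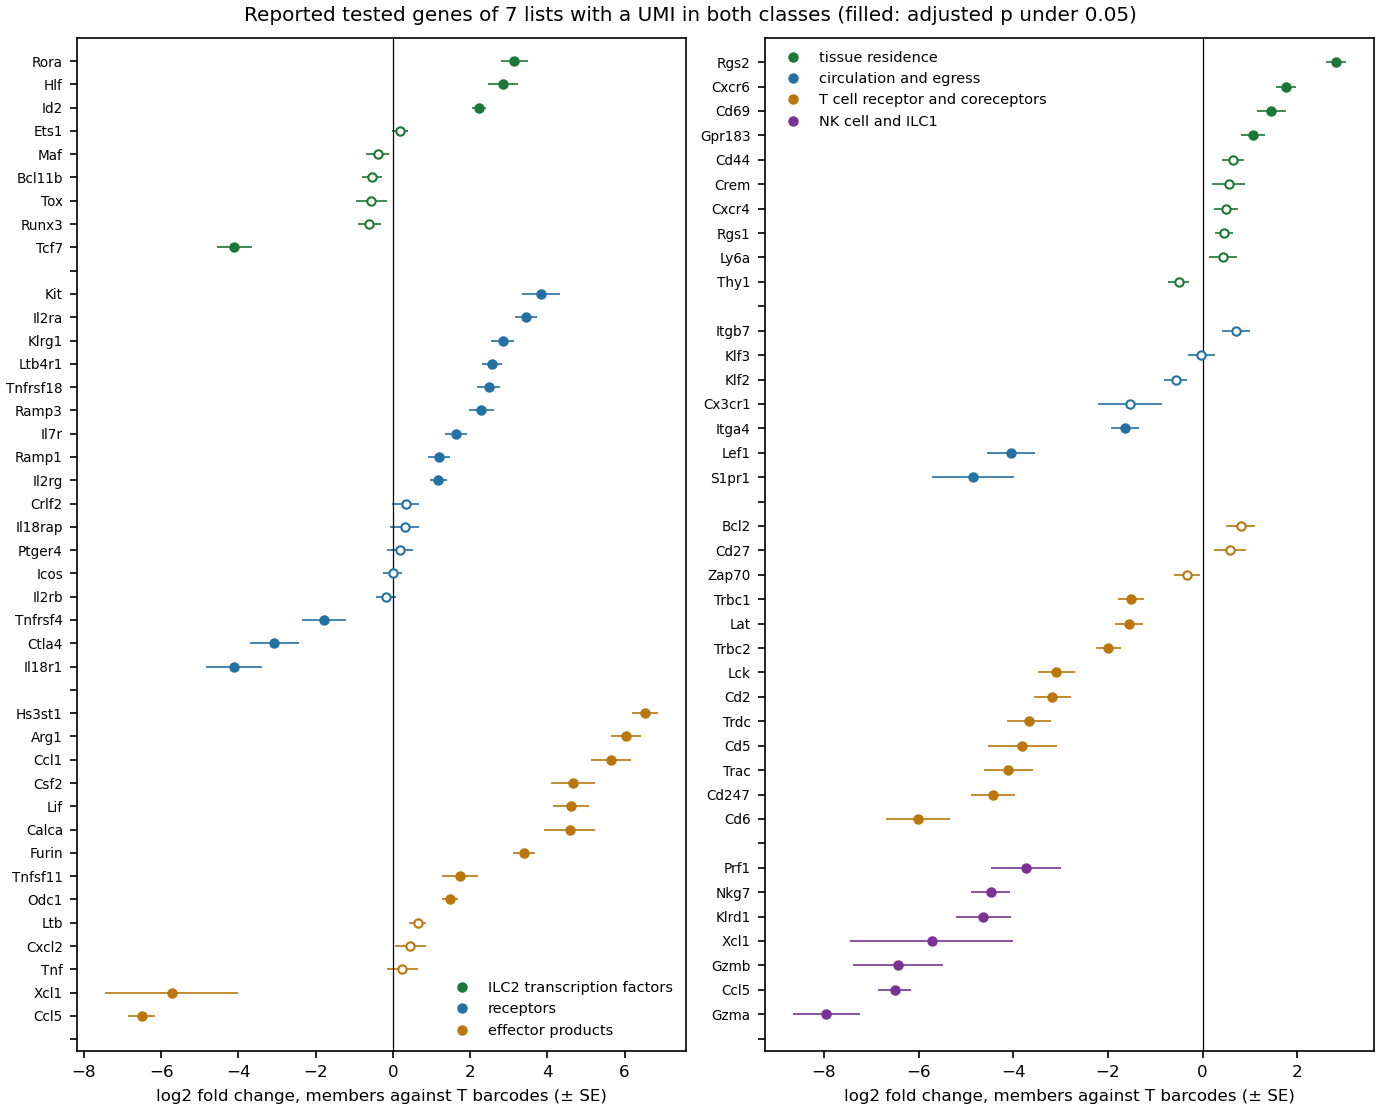
Log2 fold change of members against T barcodes, with its standard error, for the reported tested genes of 7 lists that had a UMI in both classes. Filled points passed an adjusted p of 0.05 in edgeR, as for Rora at 3.14, Hs3st1 at 6.53 and Gzma at -7.95, and open points did not, as for Icos at -0.01.

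Against NK barcodes, the other innate lymphoid cells measured here, 514 of the same 3020 genes (17%) were higher in members and 348 (11.5%) lower. Without the WD library these were 322 and 202, and without the HHcy library 216 were lower. Genes without a UMI in 1 class are given here as a bound set by 3 counts over that class. Such genes, and others under the filter on low counts in NK barcodes, passed it through other classes, so their differences are a description. Cxcr6 had 212 UMIs in members and 0 in NK barcodes, at least 67.9-fold higher, and Hs3st1 was at least 39.4-fold and Calca at least 29.5-fold higher. Inpp4b, a lipid phosphatase, was at least 55.4-fold higher, and Ccdc184 at least 44.2-fold. Ramp3, Rnf128, Lif, Pard3 and Hba-a1 also led this direction, and Hba-a1 lost its call without the HHcy or the WD library. Rora, at 0, 51.3 and 0 CPM in NK barcodes, had a log2 fold change of 7.33, and Id2, at 1206, 894 and 1148 CPM in NK barcodes, one of 1.00. Klrg1, which NK cells are also known to carry, was at 256, 278 and 155 CPM in NK barcodes and did not pass (0.36, adjusted p = 0.39). Of the 24 ILC2 markers, 13 were tested and 11 were higher and 1 lower (median 6.41, or 4.88 with 3 genes at their bound).

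Genes of NK cells and ILC1 were nearly absent from members. All 14 genes tested were lower than in NK barcodes (median log2 fold change -9.30, or -6.57 with 7 genes at their bound), and 12 of 14 were lower than in T barcodes. NK barcodes were chosen on Ncr1, Klrb1c and Eomes, so differences in NK genes follow in part from that choice. Genes nearly absent from members passed the filter on low counts through the other classes, so these differences are a description. Gzma, a granzyme, had 1 UMI in all members and 4736 in NK barcodes. Klre1 was at least 119-fold and Klrk1 at least 72.5-fold lower than in NK barcodes. Klra4, Klra7, Klra8, Klrc1, Klrc2, Ctsw and Car2 were the others with the largest differences. Tbx21, the T-bet factor of ILC1, was detected in 0 members. Genes that mark ILC3 were not detected at this depth either, since Il23r, Il22 and Il17a were each detected in 0 members. Tmem176a and Tmem176b, membrane proteins known from ILC3 and dendritic cells, were nevertheless higher in members than in T barcodes (log2 fold changes 1.36 and 1.52).

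Genes of the T cell receptor complex were lower in members, but some of their UMIs were there. Of 18 tested, 14 were lower than in T barcodes and 1 was higher, with a median of -3.42. Cd4, Cd8a, Cd8b1, Cd28, Themis and Trat1 were detected in 0 members. Cd28 was at least 46.4-fold lower than in T barcodes, Cd8b1 at least 33.2-fold and Cd8a at least 26.9-fold. Trac, the constant segment of the alpha chain, was detected in 2 members, with 5, 3 and 0 UMIs by library, against 394, 400 and 394 CPM in T barcodes. The beta chain segments Trbc2 and Trbc1 were detected in 39 and 31 members, Cd3g in 9 and Trdc in 4. In all, 53 of 68 members held a UMI of at least 1 of these 5 genes: 9 of 13, 22 of 26 and 22 of 29 by library. Trbc2 was at 189, 312 and 241 CPM in members, at 921, 1258 and 1054 in T barcodes and at 83.1, 234 and 63.8 in NK barcodes.

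Members with a T cell receptor UMI held a median of 9 ILC2 markers of the list and 6050 UMIs, and those without held 8 and 4554. By library the median markers were 8 against 9 in control, 10 against 7 in HHcy and 8.5 against 8 in WD, so the direction differed. The median UMIs were 4696 against 4908.5 in control, 6965.5 against 4722 in HHcy and 6086.5 against 4073 in WD. Members with a T cell receptor UMI were thus deeper in HHcy and WD but not in control. The part of depth in the split was not tested. The whole list of 20 T cell genes made up 0.195%, 0.168% and 0.169% of the members' UMIs against 0.502%, 0.571% and 0.490% in T barcodes.

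Genes of other lineages were found at low levels. Fractions of members with a UMI of Lyz2, a myeloid gene, were like those of other lymphocytes, at 70.6% of members, 69.2% of T barcodes and 69.6% of NK barcodes. Igkc, a B cell gene, was found in 64.7%, 61.1% and 67.4% of the 3 classes. By library, Igkc was at 94.4, 396 and 108 CPM in members and at 90.0, 368 and 95.7 CPM in T barcodes, highest in the HHcy library in both. The source of these UMIs was not tested. No doublet caller was run, so joined cells were limited only by the genes that the rule excludes. In 3 members the lists of other lineages exceeded 1% of UMIs (at most 4.23%), against 43 of 380 T barcodes (at most 43.9%). The T rule did not exclude Csf3r, Cpa3 or Col1a1 as the rule of the members did, so this contrast is bound up with the rules. The summed B cell list, which holds the class II genes, made up 0.0975%, 0.483% and 0.265% of the members' UMIs by library, and the myeloid list 0.0676%, 0.139% and 0.201%.

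Immediate early genes, which cells switch on within minutes of a stimulus or of handling, were high in members. Their list also held heat shock genes. Of its 19 tested genes, 12 were higher and 3 lower than in T barcodes (median log2 fold change 1.49). Against NK barcodes 12 were higher and 1 lower. The 12 higher genes were immediate early genes in both comparisons. Fosb, a subunit of AP-1, was at 5647, 4395 and 5184 CPM in members, at 863, 408 and 577 in T barcodes and at 430, 637 and 346 in NK barcodes. Nr4a1, an orphan nuclear receptor, Nfkbia, the inhibitor of NF-kappa-B, and Zfp36, which destabilizes cytokine transcripts, had log2 fold changes against T barcodes of 3.10, 2.52 and 2.48. The 3 genes lower than in T barcodes were the heat shock genes Hspa1a (-2.62), Hspa1b (-1.43) and Hsp90aa1 (-0.72). Over all members Hspa1a lay under the filter on low counts, so its value is a description. The calls for Hspa1a and Hsp90aa1 were lost without the HHcy library, that for Hsp90aa1 also without the WD library, in DESeq2 and with no block. All classes came from the same enzymatic digestion, and its part in these levels was not tested.

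Cytokines were detected in some members and not in others. A UMI of Il5, Il13, Csf2, Il4, Il6, Il9 or Il2 was found in 48 of 68 members, 20 had none and 12 had 3 or more of these genes. All 9 members with Il13 also had Csf2, as did 24 of the 59 without Il13. Of the 21 members with Il5, 6 had Il13 and 15 had Areg. Arg1 was found in 29 of 45 members with Klrg1 and in 10 of 23 without it, and Hs3st1 in 24 of 45 and 14 of 23. These pairs were read in members of unequal depth, so they describe co-detection and carry no test.

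**Figure D3:**
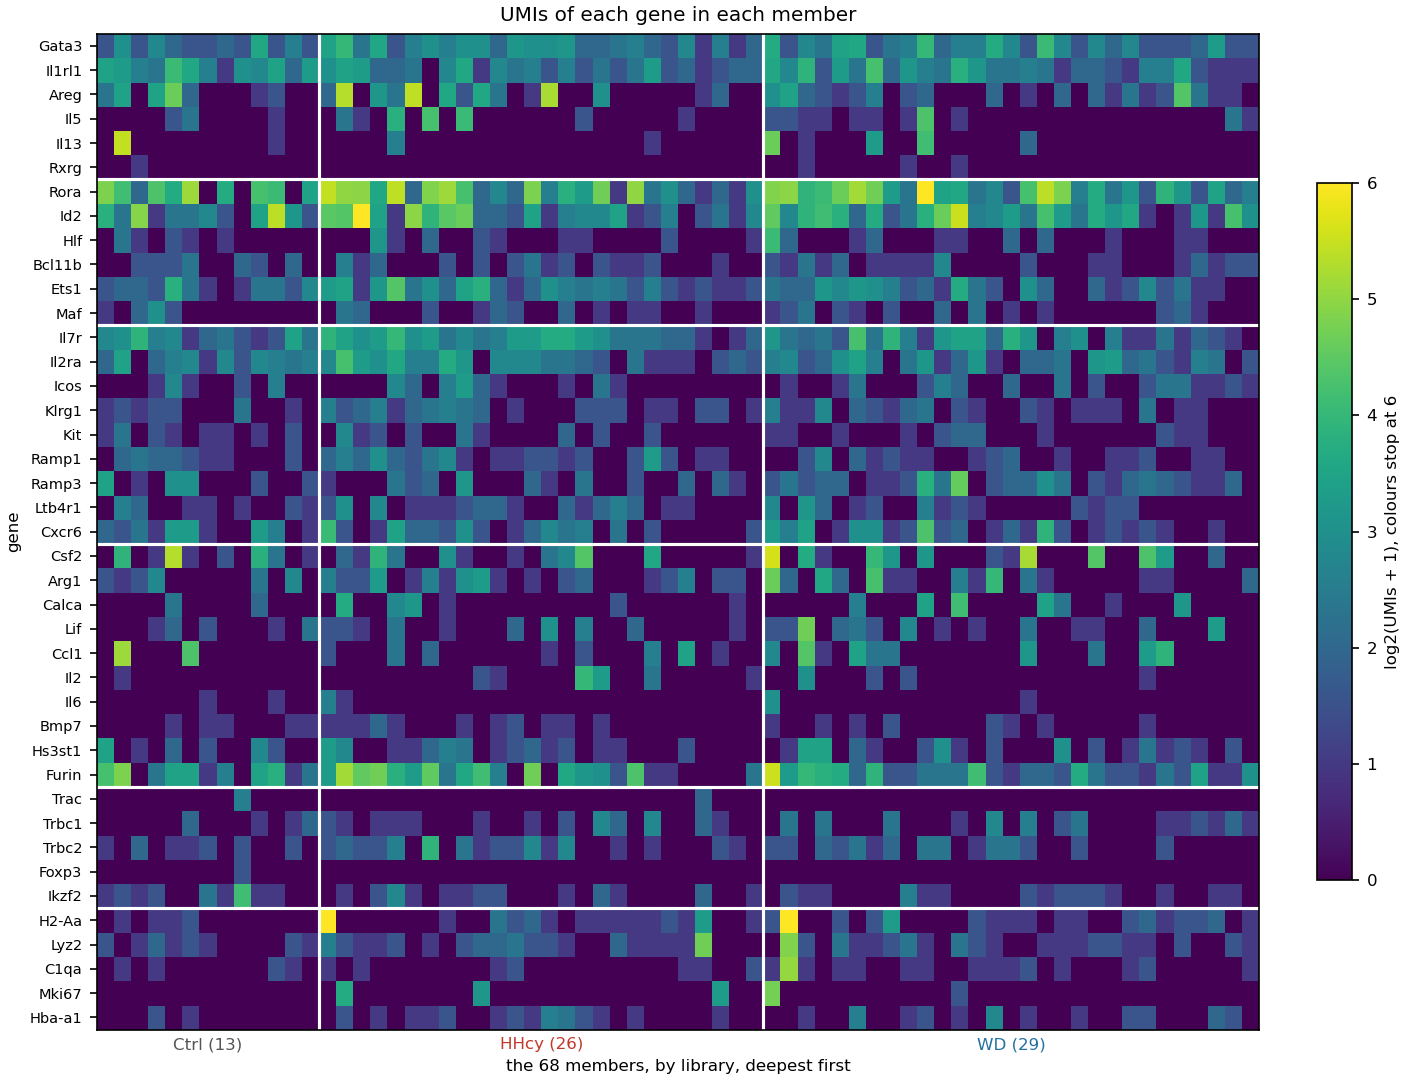
UMIs of genes (rows) in each of the 68 members (columns, by library and with the deepest first), as log2(UMIs + 1) with colours that stop at 6. Gata3, Il7r and Rora fill most columns, while Il13 is seen in 9 members and Csf2 in 33.

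A few members stood apart. One member of the control library held 2 UMIs of Foxp3, 7 of Ctla4, 17 of Ikzf2, 5 of Trac and none of Rora, which are genes of regulatory T cells. It was the 1 member with Foxp3. The deepest member, of the HHcy library with 15596 UMIs, held 294 UMIs of Cd74 and 95 of H2-Aa, and a member of the WD library held 32 of C1qa, 28 of Lyz2 and 95 of H2-Aa. Mki67, a marker of dividing cells, was found in 5 members, 3 of the HHcy and 2 of the WD library. One of these, in the WD library, had 26 UMIs of Mki67 together with 24 of Il13, 48 of Csf2 and 7 of Il6.

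Members made up 0.215% (0.115% to 0.368%) of kept barcodes in the control library, 0.319% (0.208% to 0.467%) in the HHcy library and 0.432% (0.290% to 0.620%) in the WD library, by exact Clopper-Pearson intervals. Against control, this is a log2 ratio of 0.57 (-0.39 to 1.53) in HHcy and of 1.01 (0.06 to 1.95) in WD. The WD interval left out 0 and the HHcy interval did not. Among members, T and NK barcodes together, members were 9.42%, 13.3% and 18.0%. With the 53 members that held a T cell receptor UMI left out, the shares were 0.0662%, 0.0490% and 0.104% from 4, 4 and 7 members. The HHcy ratio then turned to -0.43 (-2.43 to 1.57) and the WD ratio was 0.66 (-1.12 to 2.43), so both intervals included 0. With 1 library each, the group cannot be told apart from dissection, sort and library preparation. For HHcy it cannot be told apart from a possible difference in Apoe genotype either.

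**Figure D4:**
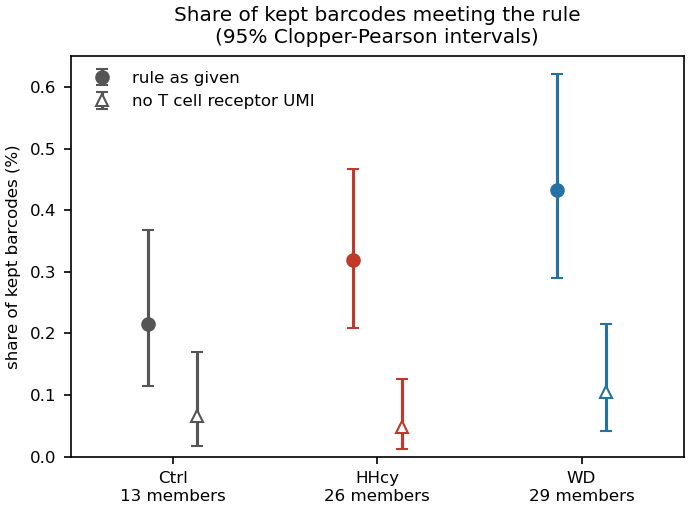
Share of kept barcodes that met the rule in each library, in percent, with 95% Clopper-Pearson intervals; triangles leave out members with a T cell receptor UMI. By the rule the shares were 0.215%, 0.319% and 0.432%, and their intervals overlap.

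Levels within the members were compared between libraries without a test, over genes with at least 20 UMIs in both libraries together. Between HHcy and control, 12% of 1690 such genes were past 2-fold higher and 5.44% past 2-fold lower. Between WD and control it was 11.4% and 3.79% of 1610 genes. Of the 12 ILC2 markers with enough UMIs, 0 were past 2-fold higher and 1 was past 2-fold lower in HHcy, and 1 was past 2-fold higher and 0 lower in WD. The marker list as a whole had a log2 ratio of -0.31 (-0.45 to -0.17) for HHcy and -0.04 (-0.18 to 0.09) for WD. Of 7 lineage factors with enough UMIs, 1 was past 2-fold higher and 0 lower in HHcy, and 0 were past 2-fold in WD. That factor was Runx3, at 1.28 (-0.24 to 3.26) from 4 control UMIs. For HHcy and WD, the log2 ratios were -0.26 and 0.02 for Rora, -0.17 and -0.13 for Id2, and -0.79 and -0.47 for Bcl11b. Of the receptors, Il7r was at -0.08 and -0.23 and Il2ra at -0.30 and -0.40. Kit had 13, 23 and 17 UMIs in control, HHcy and WD members, and its intervals for both ratios included 0. Both comparisons share the control library and its 13 members. Apoe over all kept barcodes was at 368 CPM in the HHcy library and 15.8 CPM in control. The HHcy ratios therefore cannot be told apart from a possible difference in genotype.

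Of the effector products, 2 of 12 were past 2-fold higher and 2 past 2-fold lower in HHcy, and 4 of 11 were past 2-fold higher and 0 lower in WD. Cxcl2, a neutrophil chemokine, was at 1.39 (0.73 to 2.12) in HHcy and 1.29 (0.62 to 2.03) in WD. Furin was at -0.19 and -0.42, and Arg1 at 0.04 and 0.74. Csf2 had 75, 73 and 182 UMIs in the control, HHcy and WD members, and log2 ratios of -1.51 (-2.00 to -1.03) for HHcy and -0.11 (-0.50 to 0.30) for WD. It was detected in 8 of 13, 12 of 26 and 13 of 29 members. Ccl1 was lower in HHcy (-2.39, -3.11 to -1.71), but its 53 control UMIs came from 2 members, with 64.2% in 1 of them. Ramp3, a gene of the receptor list, was detected in 6 of 13, 12 of 26 and 25 of 29 members, with ratios of -1.20 (-1.95 to -0.44) and 0.35. Calca had 7, 30 and 55 UMIs, in only 2 of 13, 6 of 26 and 7 of 29 members, and a WD ratio of 1.59 (0.45 to 2.97). Lif had a WD ratio of 1.15 (0.22 to 2.23). Areg and Il5, genes of the rule, had ratios of 0.21 and -0.84 (Areg, HHcy and WD) and UMIs of 7, 55 and 34 (Il5), given as values alone.

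**Figure D5:**
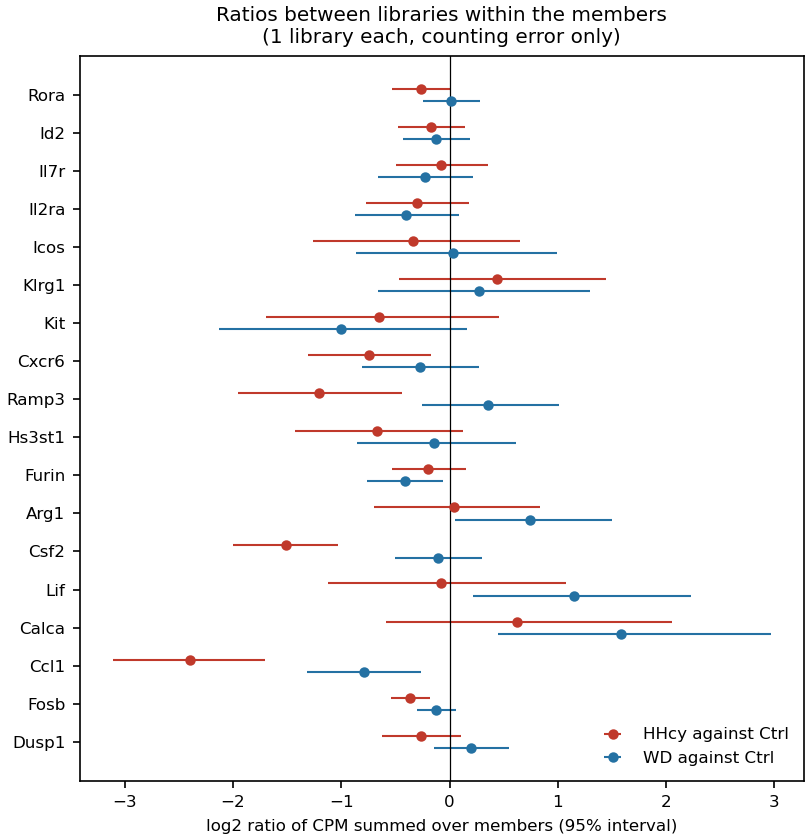
Log2 ratio of CPM summed over members, HHcy against control and WD against control, with 95% conditional binomial intervals that cover counting error. Rora and Id2 lie near 0, Csf2 lies at -1.51 and Ccl1 at -2.39 for HHcy, and Calca lies at 1.59 for WD.

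The largest ratios among named genes rested on few control UMIs. Higher in HHcy were Il2, Anxa2, Drap1, Fcer1g, H2-Aa, Ube2n, Tuba1b and H2-Ab1. Drap1, a transcriptional repressor subunit, had 28 UMIs in 19 of 26 HHcy members and 1 in the control members (log2 ratio 3.33). Il2 had 32 UMIs in 6 HHcy members, with 46.9% in 1 of them. For H2-Aa and H2-Ab1, class II genes, 76.6% and 75.5% of the HHcy UMIs came from 1 member. Lower in HHcy were Rrad, Ccl1, Spty2d1, Dgat1, Irf1, Gcnt1, Ern1 and Tnfsf14. Dgat1, which makes triglycerides, had 48 control and 28 HHcy UMIs (-2.25), and 24 of the control UMIs came from 1 member.

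In WD, the higher genes were Cd9, Gng11, Fcer1g, Cxcl10, H2-Aa, Tuba1b, Pltp and Mpc2. Cd9, a tetraspanin, had 39 UMIs in 16 of 29 WD members and 1 UMI in the control members (log2 ratio 3.90, 1.34 upward), and Mpc2, a subunit of the mitochondrial pyruvate carrier, had 22 UMIs in 14 members. By contrast 92.4% of the 79 Cxcl10 UMIs and 81.8% of the Pltp UMIs came from 1 member. The lower genes were Cdc42ep3, Tpst2, Cyth1, Arhgef6, Rhoh, Ikzf2, Arid5b and Rfx7. Cdc42ep3, an effector of the GTPase CDC42, had 23 UMIs in 11 of 13 control members and 15 in 8 of 29 WD members (-2.00). For Ikzf2, 56.7% of the control UMIs came from the member with Foxp3.

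Genes tied to the treatments were mostly sparse in members. Of 19 genes of lipid handling, 2 could be tested against T barcodes and 1, Dgat1, was higher (log2 fold change 1.86), at 755, 159 and 355 CPM in members by library. Of 15 genes of methionine and homocysteine metabolism, 4 could be tested. Slc3a2, the heavy chain of amino acid transporters, was higher (0.79) and Mat2b, a subunit of methionine adenosyltransferase, lower (-1.36). Both calls were lost when any 1 library was left out, and Mat2b lay under the filter on low counts over all members. Of 12 cell cycle genes, 0 were higher and 5 lower than in T barcodes, and their summed share was 0.0598%, 0.198% and 0.115% of members' UMIs by library, where the cycling members of HHcy and WD are counted.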

How the data were processed

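The authors' deposited matrices hold raw UMI counts per gene (32285 genes) and barcode for 3 libraries, with no normalization. Per the file headers they were written by Cell Ranger 4.0.0. The submitters' processing notes name Cell Ranger 2.2.0 and mm10 instead, and which of the versions applies is unknown. The gene annotation is not given in the sources used here. Empty droplets were not analysed here, and 0 columns came from samples outside the series. The members and gene lists were chosen with earlier results of these data known.

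Barcodes with at least 200 detected genes and at most 10% mitochondrial UMIs were kept. UMIs were summed per library and class (members, T, NK), giving 9 sums in 1 fit of edgeR 4.0.16 in R 4.3.3 (TMM, filterByExpr, quasi-likelihood test, Benjamini-Hochberg adjustment over all genes tested, threshold 0.05), with the library as a block because each library gave every class. Members' sums were 63579, 176559 and 166280 UMIs, so single genes rest on few counts. Genes without a UMI in 1 class are given against 3 counts over that class. Shares carry exact Clopper-Pearson intervals, CPM exact Poisson intervals and ratios conditional binomial intervals, all at 95%. The script was checked on simulated data.

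Named genes came from the lists and, outside the genes of the barcode rules, were the 15 (against T) or 10 (against NK) largest called changes per direction with the same sign in all 3 libraries and at least 50 CPM. Between libraries they were the 8 largest ratios per direction with at least 20 UMIs whose interval left out 0. Mitochondrial, ribosomal protein, antigen receptor variable and sex-linked genes were left out. Promoter windows came from RefSeq. Alternatives used DESeq2 1.42.0, no filter, no block, each library left out, 1000 UMIs per cell and other gates. A few genes of the lists are not reported here.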

Additional observations from a re-analysis of the deposited data

How the results depend on the processing

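Shares kept their direction at up to 20% mitochondrial UMIs and after thinning to 1000 UMIs per cell. At 500 detected genes, without Areg in the gate and without NK marker UMIs, the members stayed the same 13, 26 and 29. Areg alone admitted 0 members, 0 members held a UMI of Ncr1, Klrb1c or Eomes, and each member had at least 1037 genes. The members could thus not change in these settings. Without members holding a T cell receptor UMI the shares were 0.0662% (control), 0.0490% (HHcy) and 0.104% (WD), from 15 members in place of 68. The log2 ratios were then -0.43 (-2.43 to 1.57) for HHcy and 0.66 (-1.12 to 2.43) for WD. At up to 20% mitochondrial UMIs the WD ratio was 0.89 (0.0009 to 1.78). Genes called lower against T barcodes numbered 124 in DESeq2 and 436 with no filter, where more genes were tested. Thinned cells gave 62 higher and 39 lower against T barcodes and 70 and 65 against NK barcodes, and members without T cell receptor UMIs gave 159 and 99, and 240 and 186, with fewer genes and cells by construction. Leaving out each library gave 233 to 328 higher and 109 to 195 lower against T barcodes, and 322 to 422 higher and 202 to 291 lower against NK barcodes. Without the library block, which pairs classes of 1 library, 365 were higher and 214 lower against T barcodes and 512 and 366 against NK barcodes, and named calls lost were Hsp90aa1, Retnlg, Tnfrsf4, Tyms and Xcl1 (T), and C1qa, C1qb, Hba-a1, Tnfrsf4 and Trbc1 (NK). Scaling to CPM without TMM moved the median log2 difference over all genes from -0.03 to -0.18 against T barcodes and to -0.25 against NK barcodes.

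In an alternative chosen after seeing the data, barcodes over 1% in lists of other lineages or with Foxp3 were left out. This left 64 members, 367 higher and 245 lower genes against T barcodes, and S100a9 reversed to 0.20. Reversed in other settings were Btg2 against NK barcodes (-0.13, thinned), Crem (-0.053) and Trbc2 (-8.30) against NK barcodes without T cell receptor UMIs, Arhgef6 (0.77) and Rfx7 (1.19) for WD in the same members, and Pltp for WD (-0.16, thinned). For Trbc2 this follows from leaving out its UMIs, and for the others the cause was not tested. Genes past 2-fold lower became 10.2% for HHcy and 8.85% for WD without T cell receptor UMIs, and those past 2-fold higher became 4.23% and 6.51% after thinning, over at most 384 genes. Each ratio of levels to control rests on the 63579 UMIs of 13 control members.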

Other observations

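Hba-a1, a globin gene of red cells, was chosen for mention after its values were seen. It was detected in 28 of 68 members (2 of 13 control, 14 of 26 HHcy and 12 of 29 WD members), 55 UMIs in all. It was detected in 16 of 380 T barcodes, 0 of 46 NK barcodes and 666 of 20835 kept barcodes that were no members (3.20%). The other globin genes were rarer in members: Hba-a2 was detected in 4, Hbb-bs in 2 and Hbb-bt in 0, and Alas2, which red cell precursors need for haem, in 0. In the kept barcodes outside the members, Hbb-bs had more UMIs than Hba-a1 (21562 against 11887) and Hba-a2 had 9388. Red cells were lysed before the sort, per the labels' protocols. No cause of these values was tested.

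Among barcodes with T cell genes, 22 of the 380 T barcodes also held Gata3 and at least 1 of the 5 genes of the rule. Of these, 18 held Rora, 18 held Il7r, 1 held Hs3st1 and 9 held Foxp3, the factor of regulatory T cells. Their median count of the listed ILC2 markers, 7.5, 6 and 7 by library, was near that of members. Foxp3 was detected in 22 of 380 T barcodes and 1 of 68 members.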
